A study of Mus musculus with 10 samples.

Results

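The interferon-inducible genes described here are 40 mouse genes chosen by name for their known place in the interferon response. The choice was made with earlier results of these data known. They fall into 6 roles: interferon regulatory factors and Stat2, sensors of RNA and DNA, feedback and other genes, antiviral effectors, interferon-induced GTPases, and membrane restriction factors. All 40 had a probe set paired with that symbol alone, 64 probe sets in all. Of these genes, 39 passed the filter on low signals, under which 2 or more arrays must exceed their own 40th percentile, among 14840 genes that passed over the whole array. Mx2, a dynamin-like antiviral GTPase, did not pass, with signals between 2.2 and 25.5, and no change is given for it.

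The signals come from 10 arrays, 2 for each of 5 lines of cultured mouse mammary tumour cells. Line E is epithelial and was made from a mammary adenocarcinoma of a female of the strain FVB/N-TgN(MMTVneu)202Mul, in which the promoter of the mouse mammary tumour virus drives the neu oncogene. The other 4 lines, named M1 to M4, are mesenchymal, and each was made from 1 tumour that relapsed in a female FVB/N mouse given E cells. All 5 lines grew in RPMI with serum to near confluence, and the labels name no interferon, virus or other agent. With 1 epithelial line, no test here covers the variation among epithelial lines. Whether a line's 2 arrays represent separate cultures is not in the labels, so every p-value measures only the spread between 2 arrays, which may be technical.

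Interferons are cytokines that cells release when they sense foreign nucleic acid. Type I and type III interferons act through receptors that switch on the kinases JAK1 and TYK2; the signal reaches a complex that holds STAT2 and IRF9 and binds a promoter element named ISRE, whereas interferon-gamma acts mainly through an element named GAS. Many of the genes also have a low level in cells that have met no interferon.

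Values are deposited signals on a linear scale. A log2 change is a difference between lines of the mean log2(signal + 32), and a call required an adjusted p (limma, Benjamini-Hochberg over the 14840 genes) under 0.05 together with a 2-fold or larger change; "rose", "fell", "higher in" and "lower in" refer to calls, and values after ± are standard errors of the fit. Each array holds RNA of a whole culture, so fewer cells with a transcript and less of it per cell cannot be told apart. Overall brightness differed between arrays: E replicate 1 had a trimmed mean of 300.4 and M4 replicate 1 one of 182.4, and 9 hybridization controls had geometric means of 1248 and 759 on these same arrays. Over all genes the median change from E to the M lines' mean was -0.21. Many counts under the deposited scaling are also given after quantile normalization. The Actb 3'/5' ratio, a measure of RNA integrity, lay between 1.16 and 1.38.

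The labels were set against markers of cell types. The 5 epithelial markers, which include Epcam, Cdh1 and Krt18, summed to 40779 in E and to no more than 602 in any M line, and all 5 fell, with log2 changes of -8.21 for Epcam, -5.86 for Cdh1 and -7.33 for Krt18. Of 5 mesenchymal markers, 4 rose, among them Cdh2 (4.53) and Dcn (7.32). Vim changed by 0.31 (limma, adjusted p = 2.78e-05), which is under 2-fold and so was not called. All 5 tested markers of stromal fibroblasts rose in the mean of the M lines. For Lum the mean rested on M4, with changes of 4.8 in M4 and -0.25, -0.12 and -0.07 in M1, M2 and M3. The sum over all 6 with a probe set was 90.7 in E and lay between 1397 and 12555 in the M lines. Of 14 tested leukocyte markers, 1 fell in the mean of the M lines and 13 were not called. That one was Cd14, a co-receptor of Tlr4, at 7965 and 7947 on the E arrays and between 222.5 and 634 on the M arrays, and it made up most of the leukocyte sum of 8369 in E against 825 to 1039 in the M lines. Ptprc, the defining leukocyte marker CD45, lay between 1.4 and 17.6 on all 10 arrays, and 6 endothelial markers summed to between 60.6 and 119.8 in each line, with limma calling 0 of the 4 tested (1 had an unadjusted p under 0.05). Cd68 had 58.1 and 55.8 in E and 80.3 to 144.6 on the M arrays, and its change of 0.66 was not called. A moderated F test among the M lines called Cd14, Cd74 and the endothelial marker Cdh5. Cd74 had 125.9 and 143.6 in M3 and 33.1 to 59.2 on the other arrays, and Cdh5 had 52.2 and 48.5 in M2. The epithelial, mesenchymal and stromal markers, Cd14, Cd74 and Cdh5 move between the same lines as the interferon-inducible genes. Their part in the results was not tested.

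Against E, the M lines had lower signals of 11 interferon-inducible genes and higher signals of 3. Those that fell were 4 transcription factor genes (Irf3, Irf7, Irf8 and Irf9), the sensor gene Dhx58, the antibody receptor gene Trim21, the deconjugase gene Usp18, Ifi35, Rtp4 and the antiviral effector genes Oasl2 and Rsad2. Those that rose were the GTPase genes Ifi47 and Gbp2 and the membrane protein gene Ifitm1. The mean of the 4 M lines thus called 28.2% of the 39 genes lower and 7.69% higher, where 14.5% of all genes were called lower and 7.34% higher. The median change of the 39 genes was -0.51, and 31 of them lay below 0, as did 65.4% of all genes. After quantile normalization 6 of the 11 stayed called (Irf7, Irf8, Irf9, Dhx58, Rtp4 and Rsad2) and Ifit2 joined the 3 that rose. The shares of all genes were then 8.83% lower and 9.65% higher, and the median of the 39 genes was -0.12 against 0.04 for all genes. The p-values of the mean do not cover the spread between M lines. In a fit to 5 line means, which does, the same 6 stayed called and Irf3, Trim21, Usp18, Ifi35 and Oasl2 did not. Of the 3 that rose, Ifi47 and Gbp2 stayed called there. No share of all genes is given for that fit.

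**Figure D1:**
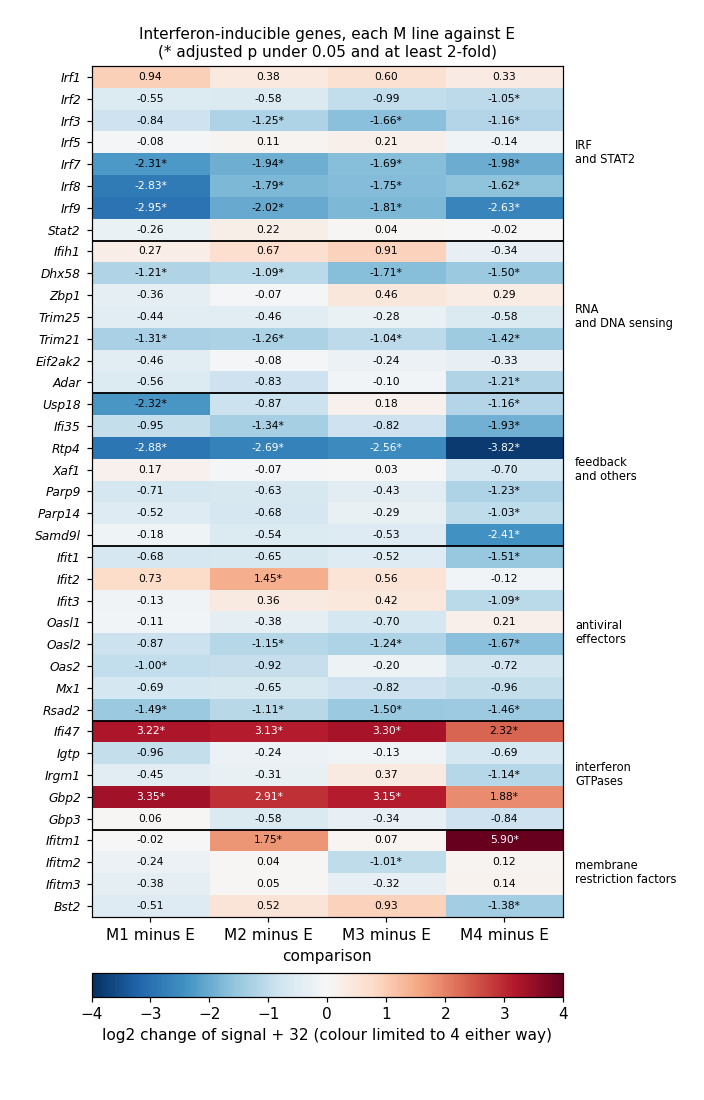
Log2 change of each of the 39 interferon-inducible genes (rows, grouped by role) in each M line against E (columns), with the value printed in each cell, blue for lower and red for higher, and an asterisk for a call (limma, adjusted p under 0.05 and at least 2-fold). Rtp4 and Irf9 were lower and Ifi47 and Gbp2 higher in all 4 columns, Ifitm1 reached 5.90 in M4 and 1.75 in M2, and the M4 column holds 20 lower calls.

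Both E arrays lay above all 8 M arrays for 19 of the 39 genes (48.7%; 30.9% of all genes) and below all 8 for 3, which were Irf1, Ifi47 and Gbp2 (7.69%; 10.8% of all genes). E and M arrays overlapped for the other 17. After quantile normalization the first count was 12 (30.8%; 20.9% of all genes).

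Promoter windows from RefSeq on GRCm38.p6 were searched for the core of the ISRE, written here as GAAA, any 2 bases and GAAA, and for the GAS element, TTCNNNGAA, on both strands over 300 bases, from 250 before the start of a transcript to 50 after it. Windows were found for 31 of the 40 genes. The ISRE core was in 15 of the 31 (48.4%) and in 3.99% of 27025 genes with a window; GAS letters were in 10 of the 31 (32.3%) and in 9.55% of genes. By call against E, the ISRE core was in 2 of 8 genes that fell, in 1 of 3 that rose and in 12 of 20 that were not called. The windows of 6 genes are shown so that genes with unlike changes can be compared: the neighbours Gbp2, which rose, and Gbp3, which was not called; Ifi47, which rose and holds neither element; Rsad2, which fell; and Bst2 and Ifit3, which were higher in M3 than in M4. Each run gives the 250 bases before the start, 5′ to 3′ on the strand of the gene, with ISRE cores in capitals (a core on the other strand appears as its reverse complement). For Gbp3 the first of 2 windows is shown.
Gbp2, chr3:142620413-142620662, plus strand: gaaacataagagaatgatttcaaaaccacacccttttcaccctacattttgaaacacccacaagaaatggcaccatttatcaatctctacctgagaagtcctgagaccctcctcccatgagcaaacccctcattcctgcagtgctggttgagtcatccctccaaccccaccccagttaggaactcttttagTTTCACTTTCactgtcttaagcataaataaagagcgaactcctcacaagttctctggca
Gbp3, chr3:142559794-142560043, plus strand: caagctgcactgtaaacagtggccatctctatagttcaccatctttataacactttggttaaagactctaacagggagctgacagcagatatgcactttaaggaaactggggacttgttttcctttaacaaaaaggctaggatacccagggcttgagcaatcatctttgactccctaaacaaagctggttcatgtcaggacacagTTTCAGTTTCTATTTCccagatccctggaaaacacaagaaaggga
Ifi47, chr11:49076337-49076586, plus strand: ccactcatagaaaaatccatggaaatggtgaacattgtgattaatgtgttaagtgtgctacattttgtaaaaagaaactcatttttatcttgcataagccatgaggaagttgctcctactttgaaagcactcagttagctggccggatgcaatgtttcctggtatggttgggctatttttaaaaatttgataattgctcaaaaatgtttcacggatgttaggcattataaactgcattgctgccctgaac
Rsad2, chr12:26456453-26456702, minus strand: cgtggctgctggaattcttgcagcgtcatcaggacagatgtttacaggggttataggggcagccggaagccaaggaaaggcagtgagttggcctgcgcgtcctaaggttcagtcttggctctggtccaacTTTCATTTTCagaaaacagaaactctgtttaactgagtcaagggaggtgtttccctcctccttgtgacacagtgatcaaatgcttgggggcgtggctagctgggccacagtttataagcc
Bst2, chr8:71537473-71537722, minus strand: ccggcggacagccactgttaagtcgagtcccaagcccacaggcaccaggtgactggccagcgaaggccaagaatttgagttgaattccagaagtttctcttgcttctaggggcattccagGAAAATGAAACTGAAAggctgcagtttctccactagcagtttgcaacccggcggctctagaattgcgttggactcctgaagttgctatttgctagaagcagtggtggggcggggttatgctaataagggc
Ifit3, chr19:34583279-34583528, plus strand: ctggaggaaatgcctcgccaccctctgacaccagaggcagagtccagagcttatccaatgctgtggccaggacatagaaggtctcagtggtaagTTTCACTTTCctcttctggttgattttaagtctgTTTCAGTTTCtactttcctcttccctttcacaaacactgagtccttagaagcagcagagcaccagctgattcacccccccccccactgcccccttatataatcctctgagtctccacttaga

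The core began at base -59 from the start in Gbp2, at -45 in Gbp3, where 2 cores overlap, at -120 in Rsad2, at -130 in Bst2, again with 2 overlapping cores, and at -156 in Ifit3, which holds a second core. Trim21, which fell, has 2 overlapping cores just after its start, in the 30 bases of chr7:102565447-102565476 on the minus strand, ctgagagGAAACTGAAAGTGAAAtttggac. The windows of Irf3, Irf7, Irf8, Irf9, Ifi35 and Oasl2, which fell, and of Ifitm1, which rose, hold no ISRE core. A match of letters is a description of the sequence and says nothing of binding in these cells, and a window without them leaves out any element outside it.

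The 8 genes of the interferon regulatory factors and Stat2 include the factors that carry the interferon signal to DNA, and 4 of them fell in the mean of the M lines. Irf9 encodes the DNA-binding partner of STAT2. Irf9 had signals of 607 and 546 on the E arrays; M1 had 49 and 44.2, M2 140.2 and 98, M3 137 and 145 and M4 78.6 and 55.3. The E arrays lay above all 8 M arrays, with M1 lowest, and Irf9 fell by 2.35 ± 0.14 (SE) in the mean (adjusted p = 2.51e-20) and in each line, with changes from -2.95 in M1 to -1.81 in M3. Irf8 encodes a factor known best from myeloid and lymphoid cells. Irf8 had signals of 360.3 and 275 on the E arrays; M1 had 19.6 and 14.2, M2 70.8 and 66.2, M3 67.9 and 75.1 and M4 84 and 77.1. It was again high on both E arrays and lowest on the M1 arrays, falling by 2.00 ± 0.14 (adjusted p = 1.27e-17), and its second probe set fell by 1.52. Irf7, the factor that amplifies type I interferon transcription, was high in E alone. Irf7 had signals of 239.5 and 239 on the E arrays; M1 had 28.3 and 17.7, M2 34.9 and 42.3, M3 65.3 and 41 and M4 41.9 and 32.1. The fall was 1.98 ± 0.15 in the mean (adjusted p = 1.07e-16) and was called in every line, from -2.31 in M1 to -1.69 in M3. Irf7, Irf8 and Irf9 kept their calls in the mean and in all 4 lines under every alternative run.

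Irf3, the constitutive factor that nucleic acid sensors activate, had a smaller difference. Irf3 had signals of 895 and 820.3 on the E arrays; M1 had 475 and 451, M2 394 and 297, M3 248.9 and 251 and M4 351 and 381. No M array reached the lower E array. The mean change was -1.23 ± 0.13 (adjusted p = 1.04e-11), with calls in M2, M3 and M4 and a change of -0.84 in M1. Of its 4 probe sets, 2 were called lower (-1.23 and -1.41) and 2 were not (-0.81 and -0.35), and the mean call was lost after quantile normalization (-0.83) and under scaling by the hybridization controls (-0.89). Irf1, which interferon-gamma induces, was the only one of the 8 with all M arrays above E: 554 and 423 in E against 577 to 996 on the M arrays. Its change of 0.57 ± 0.13 did not reach 2-fold in the mean, and its values in M1 (0.94) and M3 (0.60) were called after quantile normalization (1.15 in each). Irf2, a repressor that competes for the same element, had -0.79 in the mean and was called lower in M4 (-1.05), a call lost after quantile normalization (-0.53). Stat2 (-0.01) and Irf5 (0.03), a factor downstream of Toll-like receptors, had signals that overlapped between E and M. Stat2 signals were low, between 25.5 and 58.2 on all arrays, and between 1.6 and 23.1 for its other probe set. This limits the change that can be measured for Stat2. For Irf5 the probe sets disagreed: the one with the higher mean signal gave 0.03, whereas the other rose by 1.05, from 16.7 and 8.6 in E to between 41 and 84.6 on the M arrays.

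**Figure D2:**
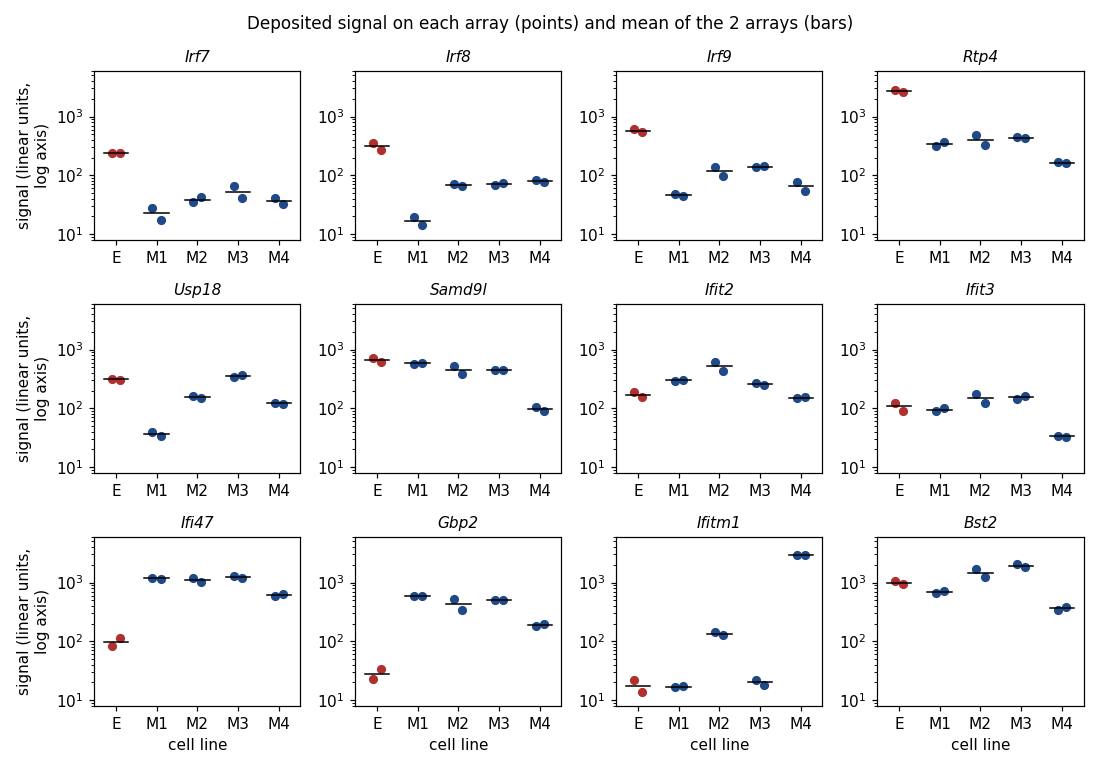
Deposited signal (log axis, linear units) of 12 interferon-inducible genes on each of the 10 arrays, with points for arrays (red for E, blue for the M lines) and a bar for the mean of the 2 arrays of a line. Irf7, Irf8, Irf9 and Rtp4 were high in E alone, Ifi47 and Gbp2 were low in E alone, Usp18 ran from 33.9 on an M1 array to 374 on an M3 array, and Ifitm1 had 2929 and 2947 on the M4 arrays.

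Sensors of foreign RNA and DNA and their partners make up 7 of the genes, and 2 fell: Dhx58 and Trim21. Dhx58 encodes LGP2, an RNA helicase that tunes the sensors RIG-I and MDA5. Dhx58 had signals of 92 and 89.9 on the E arrays; M1 had 16.9 and 26.1, M2 28.2 and 23.4, M3 4 and 7.1 and M4 3.1 and 21.5. All M signals were at 28.2 or below. The change was -1.38 ± 0.16 (adjusted p = 2.9e-10) and depends on the pseudocount, being -2.16 with a pseudocount of 8 and -0.60, not called, with one of 4 times 32; its other 2 probe sets gave -0.88 and -0.12 and were not called. Trim21 encodes a cytosolic antibody receptor and ubiquitin ligase. Trim21 had signals of 430.0 and 389.8 on the E arrays; M1 had 149 and 142, M2 170.0 and 135, M3 197 and 169 and M4 126 and 141. The 8 M arrays lay close together and well below E. Its 2 probe sets fell by 1.26 ± 0.13 (adjusted p = 1.3e-11) and 1.17, and the call was lost after quantile normalization (-0.84) and under scaling by the hybridization controls (-0.94).

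The other 5 sensors were not called in the mean, but Ifih1 and Adar differed among the M lines. Ifih1 encodes MDA5, the sensor of long double-stranded RNA. Ifih1 had signals of 46.1 and 35.8 on the E arrays; M1 had 60.8 and 51.4, M2 109 and 63.2, M3 118 and 92.7 and M4 31.7 and 19.6. M3 was highest and M4 lowest, 1.26 ± 0.19 apart (adjusted p = 4.59e-07), with E in between. Adar encodes the RNA-editing enzyme that marks cellular double-stranded RNA as self. Adar had signals of 907 and 758 on the E arrays; M1 had 575 and 533, M2 497 and 414, M3 733 and 816 and M4 343 and 337. The M3 arrays overlapped E, whereas M4 was 1.12 ± 0.16 below M3 (adjusted p = 9.09e-08) and 1.21 below E, the latter a call lost after quantile normalization (-0.59). Of the other 2 Adar probe sets, which gave -0.06 and -0.64 in the mean of the M lines, neither was called. Against E they gave 0.3 and -0.38 in M3 and -0.27 and -0.95 in M4, less than 2-fold between these lines. With the mean of the gene's probe sets, the range over the M lines was 0.75 and was not called. The kinase gene Eif2ak2 (-0.28), the ubiquitin ligase gene Trim25 (-0.44) and the Z-nucleic acid sensor gene Zbp1 (0.08) were not called in any line.

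Feedback and other interferon-induced genes held the largest fall of the 39. Rtp4 encodes a transmembrane chaperone of receptors that type I interferon induces. Rtp4 had signals of 2823 and 2664 on the E arrays; M1 had 319 and 373, M2 479 and 328, M3 445 and 433 and M4 166 and 161. No M array exceeded 479, against 2664 on the lower E array. Rtp4 fell by 2.99 ± 0.13 in the mean (adjusted p = 1.73e-25), which is 7.94-fold on the scale of signal + 32, and by 3.82 in M4, 1.27 ± 0.17 further than in M3 (adjusted p = 1.34e-08). Its second probe set was also called, with a smaller fall of 1.16, and there M4 (-1.10) was not below M3 (-1.36). Usp18 encodes the protease that removes ISG15 from proteins and also restrains the type I interferon receptor. Usp18 had signals of 319 and 305 on the E arrays; M1 had 40.4 and 33.9, M2 163 and 149, M3 339.8 and 374 and M4 124 and 119. M3 lay just above E and M1 was lowest, with M2 and M4 in between. Usp18 was called lower in M1 (-2.32) and M4 (-1.16) and not in M2 (-0.87) or M3 (0.18), and M1 was 2.49 ± 0.17 below M3 (adjusted p = 1.81e-17). Its call in the mean (-1.04 ± 0.13, adjusted p = 1.6e-09) rested on M1: without that line the value was -0.62 and not called, and it was -0.62 after quantile normalization too.

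Ifi35 encodes an interferon-induced leucine zipper protein that binds Nmi. Ifi35 had signals of 3013 and 2794 on the E arrays; M1 had 1522 and 1444, M2 1307 and 977, M3 1628 and 1620.4 and M4 701 and 779. E was above all M arrays and M4 was lowest. The 3 probe sets fell by 1.26, 1.3 and 1.31 in the mean (adjusted p = 4.26e-14 for the first), and after quantile normalization the change was -0.95 and not called. Samd9l encodes a growth and antiviral restriction factor. Samd9l had signals of 717 and 611 on the E arrays; M1 had 578 and 584, M2 516 and 383, M3 446 and 451 and M4 106 and 91.8. Both E arrays were above all M arrays, and the M4 arrays were by far the lowest: the change in M4 was -2.41 (adjusted p = 1.11e-17), and M4 was 2.23 ± 0.17 below M1 (adjusted p = 1.15e-15). The mean change of -0.92 was just under 2-fold and was called when any of M1, M2 or M3 (-1.16, -1.04 and -1.04) or E replicate 2 (-1.03) was left out. The ADP-ribosyltransferase genes Parp9 and Parp14 were called lower in M4 (-1.23 and -1.03), and both calls were lost after quantile normalization (-0.60 and -0.55), that of Parp14 also without E replicate 1 (-0.97) or M4 replicate 2 (-0.95). Xaf1, a pro-apoptotic gene, was not called in any line. In M4, 6 of the 7 genes of this role were called lower, against 2 in M1, 2 in M2 and 1 in M3 (of all genes, 20.1% were called lower in M4, 12.5% in M1, 11.8% in M2 and 19.8% in M3); after quantile normalization Ifi35, Rtp4 and Samd9l were still called in M4.

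Among 8 measured antiviral effectors, Rsad2 and Oasl2 fell in the mean. Rsad2 encodes viperin, an enzyme that makes a chain-terminating nucleotide. Rsad2 had signals of 152 and 115 on the E arrays; M1 had 28 and 24.8, M2 41.1 and 47.7, M3 22.7 and 30.1 and M4 29.5 and 26.4. The M arrays lay between 22.7 and 47.7, all below E. The fall was 1.39 ± 0.15 (adjusted p = 1.36e-11) and was called in all 4 lines; the call in M2 was lost after quantile normalization (-0.86) and without E replicate 1 (-0.94). The other 2 probe sets gave -0.51 and -0.38 and were not called, and the value was -0.71, not called, with a pseudocount of 4 times 32. Oasl2 encodes a protein like the oligoadenylate synthetases. Oasl2 had signals of 262 and 228 on the E arrays; M1 had 113 and 127, M2 115 and 73.6, M3 88.2 and 82.1 and M4 66.6 and 44.9. It fell by 1.23 ± 0.14 (adjusted p = 1.74e-10), most in M4 (-1.67), and the mean call was lost after quantile normalization (-0.85). Its neighbour in the genome, Oasl1, had overlapping signals in E and M and a change of -0.25.

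Ifit1, Ifit2 and Ifit3 encode proteins that bind foreign RNA and lie close together in the genome, with no protein-coding gene between Ifit2 and Ifit3. Ifit2 had signals of 187 and 153 on the E arrays; M1 had 294 and 308, M2 613 and 439, M3 275 and 254 and M4 152 and 154. Ifit2 was highest in M2, where it rose by 1.45 (adjusted p = 3.79e-10), and its change in M4 was -0.12 (adjusted p = 0.561). Ifit3 had signals of 125 and 91.9 on the E arrays; M1 had 88.5 and 103, M2 173 and 125, M3 146 and 165 and M4 33.9 and 33.2. Ifit3 fell in M4 (-1.09, adjusted p = 7.04e-07), and was not called in the other lines; the M4 call was lost after quantile normalization (-0.68) and without E replicate 1 (-0.92). The difference between M3 and M4 was 1.51 ± 0.18 for Ifit3 (adjusted p = 1.04e-09), and between M2 and M4 it was 1.58 ± 0.17 for Ifit2 (adjusted p = 2.4e-10). Ifit1 was below E on every M array, at 45.9 to 137 against 222 and 170.4, and was called lower in M4 (-1.51). Oas2, an oligoadenylate synthetase, was called lower in M1 at the limit of 2-fold, with E signals of 62.7 and 49.6, and that call was lost after quantile normalization (-0.81) and without E replicate 1 (-0.90) or M1 replicate 2 (-0.85). Mx1, the antiviral GTPase, had 52.9 and 39 in E and 7.2 to 19.1 on the M arrays, and was not called with the pseudocount of 32 (-0.78) but was with 8 (-1.35).

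The interferon-induced GTPases hold the 2 genes that rose in all 4 M lines. Ifi47 encodes IRG-47, an immunity-related GTPase. Ifi47 had signals of 83.7 and 113 on the E arrays; M1 had 1187 and 1162, M2 1195 and 1015, M3 1274 and 1209.6 and M4 583 and 644. Both E arrays lay far below all 8 M arrays, and M4 was lowest of the M lines. Ifi47 rose by 2.99 ± 0.12 in the mean (adjusted p = 1.94e-26), or 7.96-fold on the scale of signal + 32, and by 3.22 (M1), 3.13 (M2), 3.30 (M3) and 2.32 (M4). Gbp2 encodes a guanylate-binding protein that attacks the vacuoles of intracellular pathogens. Gbp2 had signals of 23.2 and 33.5 on the E arrays; M1 had 579.5 and 584, M2 519 and 337, M3 509 and 496 and M4 183 and 195. It too was low on the E arrays alone and lowest of the M lines in M4. The rise was 2.82 ± 0.14 in the mean (adjusted p = 1.68e-23), and M4 was 1.47 ± 0.17 below M1 (adjusted p = 1.53e-09). These values come from a probe set whose name marks probes that can match other sequences; the gene's other probe set rose by 2.29, from 2.80 in M1 to 1.48 in M4. Both genes stayed called in the mean and in each line under every alternative run.

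The other GTPase genes were not called in the mean. Gbp3, a guanylate-binding protein gene which has 1 protein-coding gene between it and Gbp2, had 85.6 and 98 in E and 30 to 119 on the M arrays, and its change of -0.42 was not called. Igtp, another immunity-related GTPase gene, had a change of -0.51 and was not called in any line. Irgm1, an immunity-related GTPase that regulates the others of its family, differed among the M lines. Irgm1 had signals of 605 and 523 on the E arrays; M1 had 409 and 399.5, M2 529 and 381, M3 733 and 739.5 and M4 249.5 and 226. M3 was above E and M4 below it on both arrays, and they were 1.51 ± 0.16 apart (adjusted p = 1.27e-10). The call against E in M4 (-1.14) was lost after quantile normalization (-0.51).

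Of the membrane restriction factors, which block virus entry or release, Ifitm1 had the widest spread of all 39 genes. Ifitm1 had signals of 21.9 and 13.6 on the E arrays; M1 had 16.6 and 17.1, M2 144 and 126, M3 22.4 and 18.1 and M4 2929 and 2947. M4 stood above every other line, by 4.16 to 5.93 on the log2 scale, M2 came next, and the M1 and M3 arrays overlapped E. Ifitm1 rose by 5.90 in M4 (adjusted p = 1.19e-32) and by 1.75 in M2 (adjusted p = 1.52e-12), and was not called in M1 (-0.02) or M3 (0.07). The rise in the mean (1.93 ± 0.13) rested on M4: without that line it was 0.60 and not called, and it was not called in the fit to 5 line means. Its neighbours Ifitm2 and Ifitm3, with no protein-coding gene between them and Ifitm1, had high signals in all lines. Ifitm2 had signals of 7911 and 7565 on the E arrays; M1 had 6663 and 6419.6, M2 8467 and 7462, M3 3805 and 3841 and M4 8392 and 8393. Ifitm2 was lowest in M3, 1.13 ± 0.09 below M4 (adjusted p = 2.77e-14), and fell against E there (-1.01), a call lost after quantile normalization (-0.71) and without E replicate 1 (-0.98). Ifitm3 lay between 7897 and 11400.2 on all 10 arrays and was not called in any line.

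Bst2 encodes tetherin, which holds budding virus at the cell surface. Bst2 had signals of 1055 and 942 on the E arrays; M1 had 654 and 725, M2 1692 and 1231, M3 2044 and 1818 and M4 341 and 385. The M arrays lay on both sides of E: M2 and M3 above, M1 and M4 below. Against E the changes were -0.51 (M1), 0.52 (M2), 0.93 (M3) and -1.38 (M4), of which that in M4 was called (adjusted p = 6.56e-11). After quantile normalization M3 was called higher (1.43) and M4 was not called (-0.78). The mean of the M lines was -0.11, with a difference of 2.31 ± 0.15 between M3 and M4 (adjusted p = 1.68e-17).

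Taken by line, the counts against E were 9 lower and 2 higher in M1 (12.5% and 8.6% of all genes), 10 and 4 in M2 (11.8% and 8.58%), 10 and 2 in M3 (19.8% and 7.7%), and 20 and 3 in M4 (20.1% and 6.65%). These comparisons share the 2 E arrays. Irf7, Irf8, Irf9, Dhx58, Trim21, Rtp4 and Rsad2 were called lower in every line, and Ifi47 and Gbp2 higher in every line. Trim21 was not called in M3 without E replicate 1 (-0.97) or M3 replicate 2 (-0.95). The higher count in M3 was 4 without E replicate 1 or without M3 replicate 2. After quantile normalization the counts were 7 and 3 in M1 (9.4% and 10.2% of all genes), 7 and 4 in M2 (8.75% and 10.1%), 7 and 6 in M3 (11.7% and 12.1%), and 10 and 3 in M4 (9.5% and 10.4%), and Irf7, Irf8, Irf9 and Rtp4 were then lower and Ifi47 and Gbp2 higher in every line. The median of the 39 genes was -0.51 (M1), -0.54 (M2), -0.29 (M3) and -1.03 (M4), beside medians of all genes of -0.11, -0.14, -0.25 and -0.35.

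**Figure D3:**
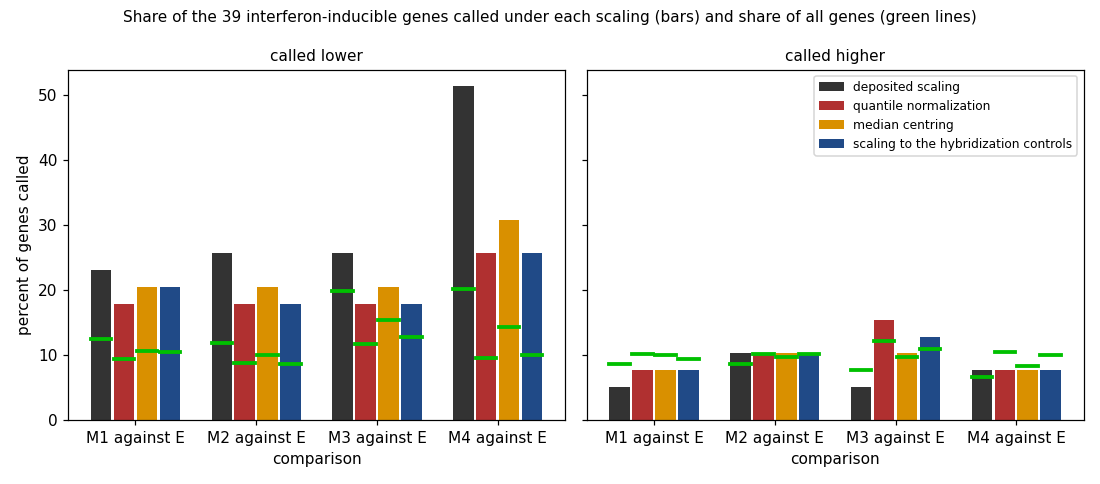
Percent of the 39 interferon-inducible genes called lower (left) and higher (right) in each M line against E, with 1 bar for each of 4 scalings and a green line for the share of all genes called under the same scaling. In M4 the lower calls went from 51.3% under the deposited scaling to 25.6% after quantile normalization, and the shares of all genes went from 20.1% to 9.5%.

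The next comparison was among the M lines, where the E arrays enter only through the estimate of the spread. Of the 39 genes, 15 differed among the 4 lines (moderated F test; 38.5%, where 22.4% of all genes were called): Irf8, Irf9, Ifih1, Adar, Usp18, Ifi35, Rtp4, Samd9l, Ifit2, Ifit3, Irgm1, Gbp2, Ifitm1, Ifitm2 and Bst2. M4 was the lowest of the 4 line means for 23 of the 39 genes (59%; 41.8% of all genes) and M3 the highest for 20 (51.3%; 19.5% of all genes). After quantile normalization M4 was lowest for 19 (48.7%; 25.1% of all genes) and M3 highest for 24 (61.5%; 31.7% of all genes). M1 was lowest for 11 under the deposited scaling (28.2%, against 14.4% of all genes) and for 15 after quantile normalization (38.5%, against 26.1%). The M4 arrays also had the lowest trimmed mean signals, 182.4 and 191.9. After quantile normalization Zbp1, Ifit1, Oasl1 and Igtp were also called in the F test.

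Between M3 and M4, 10 genes were higher in M3 (25.6%; 5.77% of all genes): Ifih1, Adar, Usp18, Ifi35, Rtp4, Samd9l, Ifit3, Irgm1, Gbp2 and Bst2. The 2 that were lower in M3 were Ifitm1 and Ifitm2 (5.13%; 4.56% of all genes). All 12 were also called after quantile normalization. M2 was higher than M4 for 7 genes (17.9%; 5.28% of all genes), namely Ifih1, Rtp4, Samd9l, Ifit2, Ifit3, Gbp2 and Bst2, of which 4 were also called after quantile normalization, and lower for Ifitm1 (2.56%; 1.04% of all genes); these 8 calls became 5 without M2 replicate 1. M1 was below M3 for Irf8, Irf9, Usp18 and Bst2 and below M2 for Irf8, Usp18, Ifitm1 and Bst2 (10.3% each; 2.55% and 2.59% of all genes). In these pairs limma called 0 of the 39 genes higher in M1 (8.44% of all genes against M3 and 1.95% against M2), and at an unadjusted p under 0.05 there were 9 against M3 and 6 against M2. M1 was above M4 for Samd9l and Gbp2 (5.13%; 6.83% of all genes) and below it for Irf8, Usp18 and Ifitm1 (7.69%; 2.13% of all genes), and these 5 calls became 8 without M1 replicate 2. M2 and M3 differed for 3 genes under the deposited scaling. Ifitm1 and Ifitm2 were higher in M2 (5.13%, against 6.05% of all genes) and Usp18 in M3 (2.56%, against 1.24%). After quantile normalization Ifitm2 was not called, and Adar joined Usp18 as higher in M3 (5.13%, against 2.41% of all genes). Irf8 was then not called between M1 and M2, where 3 genes remained lower in M1 (7.69%, against 2.59%).

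**Figure D4:**
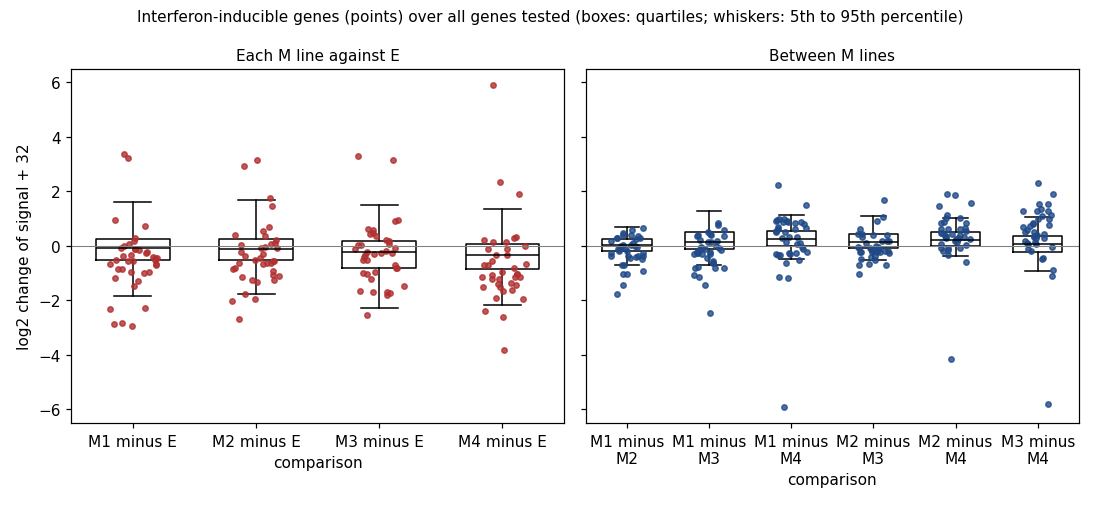
Log2 changes of the 39 interferon-inducible genes (points, with sideways scatter for legibility) in the 4 comparisons against E (left) and the 6 between M lines (right), over boxes of all 14840 genes (quartiles, with whiskers from the 5th to the 95th percentile). The points at -5.93, -4.16 and -5.83 in the comparisons with M4, and that at 5.90 against E, are Ifitm1; in M3 minus M4 most points lie above the median of all genes.

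The 17 genes not described array by array had mean changes between -0.84 (Ifit1) and 0.57 (Irf1), and signals from 7.2 to 11400.2. Under the deposited scaling none of them was called in the M lines' mean or in the F test. Even so, 5 were called lower in 1 line (Irf2, Parp9, Parp14 and Ifit1 in M4, and Oas2 in M1). These 5 had adjusted p-values between 8.7e-06 (Ifit1) and 0.0173 (Irf2) in the F test, and their range over the M lines was under 2-fold, from 0.50 on the log2 scale for Irf2 to 0.99 for Ifit1.

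Other genes of the pathway were counted from 4 lists, of which each had some symbols without a probe set of that symbol alone. In the mean of the M lines 7.34% of all genes were called higher and 14.5% lower (9.65% and 8.83% after quantile normalization), and nothing is read from the first 3 lists' small counts beside those shares. Of 8 tested interferon ligands and receptors, 1 fell and 7 were not called; Il10rb, a subunit of the type III interferon receptor and of the interleukin 10 receptor, went from 1184 and 1042 in E to between 241 and 363 on the M arrays (-1.81 ± 0.13). The receptor genes Ifnar1 and Ifnar2 of type I interferon had changes of -0.54 and -0.66, and Ifnb1 signals lay between 12.6 and 25.5 on all arrays. Of 10 genes of the JAK-STAT relay and its inhibitors, 2 rose and 2 fell, or 2 and 1 after quantile normalization. The inhibitor genes Socs3 (2.69 ± 0.14) and Socs1 (1.14 ± 0.15) rose; Stat3 (-1.80 ± 0.11) and the phosphatase gene Ptpn2 (-1.02 ± 0.10) fell, and Ptpn2 was not called after quantile normalization (-0.75). Jak1 had 505 and 441 in E and 531 to 1046 on the M arrays, a change of 0.58 that was not called. Of 16 genes of nucleic acid sensing, 3 fell and 1 rose, or 1 and 1 after quantile normalization. Tlr3, the endosomal receptor for double-stranded RNA, went from 916 and 749 in E to between 33.1 and 168 on the M arrays (-2.73 ± 0.14), and Tlr4, the receptor for bacterial lipopolysaccharide, rose by 1.14 ± 0.14. Traf6 (-1.28) and Ikbke (-1.25) fell under the deposited scaling and were not called after quantile normalization (-0.87 for each).

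A further 49 tested genes that interferons induce gave 14 higher and 9 lower calls (7.34% and 14.5% of all genes), or 17 and 4 after quantile normalization (9.65% and 8.83% of all genes), with a median change of 0.08. The 4 largest were Psmb8, a subunit of the immunoproteasome, which went from 10.6 and 10.9 in E to between 885 and 1570 on the M arrays (4.94 ± 0.12), Plac8 (3.24 ± 0.13), Phf11d (2.48 ± 0.13) and Cmpk2, a mitochondrial nucleotide kinase gene, which fell by 2.13 ± 0.16. Plac8 was highest in M4, at 7002 and 7236, against 64.3 and 44.4 in E and 199 to 975 on the other M arrays. Among these 49 genes M4 was the lowest M line for 24 (49%), near the 41.8% of all genes. M3 was the highest for 21 (42.9%, against 19.5% of all genes). After quantile normalization M4 was lowest for 21 (42.9%, against 25.1%) and M3 highest for 26 (53.1%, against 31.7%).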

How the data were processed

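The intensity values are the signals deposited by the authors, 1 per probe set and array, made from biotin-labelled cRNA with GCOS 1.3 per the submitters' processing notes; their signal algorithm and scaling target: not given in the sources used here. No rescaling was applied. Probe sets above the 40th percentile of their array on at least 2 arrays were kept (32978 of 45101), and each gene was represented by the kept probe set with the highest mean signal, named where the platform annotation gives 1 symbol (34945 probe sets; 932 give several and 9160 none). log2(signal + 32) was fitted with 1 mean per line in limma 3.58.1 (R 4.3.3; moderated variances with an intensity trend), with 5 residual degrees of freedom, and the steps were tested on simulated data. A call needs a Benjamini-Hochberg adjusted p under 0.05 over 14840 genes and a change of 2-fold. The fold on this scale understates changes of dim genes.

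The genes and the pathway and marker lists were chosen with earlier results of these data known. Array values are given for the genes called in the M lines' mean or in the F test among those lines. Genes of the pathway lists were named for their calls, or as receptors and ligands. Jak1, a kinase gene of the pathway, was named without a call. The genes under Other observations were picked after their values were seen. Array number limits the precision. Same-line arrays correlated at 0.992 to 0.993 and different lines at 0.873 to 0.976. Oasl1, Oasl2 and the Ifit, Gbp and Ifitm genes have near copies whose probes may share signal, and the Irf3 and Gbp2 probe sets shown are of a type that can match other sequences. Alternatives covered the scaling, pseudocount, floor, filter, probe set rule, prior, replicate block, line means and each left-out array or line.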

Additional observations from a re-analysis of the deposited data

Results flagged for a closer look

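The change against E differed between M lines for 15 of the 39 genes by the moderated F test (limma, adjusted over all genes, with a range of at least 2-fold; 22.4% of all genes were called), and the range of the 4 line means on the log2 scale is given for each. Ifitm1 had the widest range, 5.93 between M4 and M1 (adjusted p = 8.6e-33). Usp18 ranged over 2.49 from M1 up to M3 (adjusted p = 2.01e-16), Bst2 over 2.31 from M4 up to M3 (adjusted p = 6.62e-18), and Samd9l over 2.23 from M4 up to M1 (adjusted p = 3.13e-16).

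M4 was the lowest and M3 the highest line for Ifit3 (1.51, adjusted p = 3.99e-10) and Irgm1 (1.51, adjusted p = 1.25e-09), and also for Rtp4 (1.27, adjusted p = 1.1e-08), Ifih1 (1.26, adjusted p = 1.03e-06), Adar (1.12, adjusted p = 4.55e-07) and Ifi35 (1.10, adjusted p = 6.83e-09). M4 was lowest too for Ifit2, which was highest in M2 (1.58, adjusted p = 1.02e-09), and for Gbp2, which was highest in M1 (1.47, adjusted p = 1.35e-09). M1 was the lowest line for Irf8, which was highest in M4 (1.2, adjusted p = 9.24e-08), and for Irf9, which was highest in M3 (1.14, adjusted p = 3.44e-07). Ifitm2 was lowest in M3 and highest in M4 (1.13, adjusted p = 8.3e-15).

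The lines also differed in overall signal, with trimmed means of 254.2 and 251.4 on the M1 arrays, 274.5 and 216.8 in M2, 202.3 and 200 in M3, and 182.4 and 191.9 in M4. Among the 3 other scalings, the calls of Adar (0.98) and Ifi35 (0.96) were lost with scaling to the hybridization controls. No other of the 15 was lost. Quantile normalization added calls for Zbp1 (1.02), Ifit1 (1.01), Oasl1 (1.05) and Igtp (1.06). Scaling to the controls added Zbp1 (1.01), Oasl1 (1.05) and Igtp (1.06). With the mean of a gene's probe sets, the calls of Adar (0.75), Ifi35 (0.86) and Rtp4 (0.57) were lost. Those of Irf8 (0.33) and Ifih1 (0.71) were lost with values below 64 set to 64.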

How the results depend on the processing

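With the genes called against E in the mean of the M lines, the 3 higher calls ranged from 2 to 4 over the alternatives. The 11 lower calls became 6 after quantile normalization and after scaling to the hybridization controls (8.83% and 9.41% of all genes). They were also 6 with the larger pseudocount (4 times 32) and in the fit to 5 line means. By line, the larger pseudocount gave 5 lower calls in M1 and 6 in M2, and in M3 and M4 it gave 5 and 10. M4 had 10 after quantile normalization, 12 after median centring and 10 with scaling to the controls (9.5%, 14.3% and 10% of all genes). Higher calls in M3 were 6, 4 and 5 under those 3 scalings (12.1%, 9.6% and 10.9% of all genes). Genes that differed among the M lines numbered 23 with a pseudocount of 8 and 9 with the larger one. Under the larger one Irf8, Irf9, Ifih1, Adar, Rtp4 and Ifit3 were lost. For the pseudocounts, the line means and the left-out arrays or lines, shares of all genes are not given. Nothing particular to the 39 genes is read from those counts.

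The pairs of M lines and the patterns under other scalings were examined after seeing the data. For M1 minus M3, 7 genes were called under quantile normalization and the scaling to the controls, all lower in M1 (17.9%, against 4.59% and 4.39% of all genes). A pseudocount of 8 also gave 7, and the larger one 2. M2 minus M4 had 5 calls under each of these scalings, 4 of them higher in M2 (10.3%, against 2.2% and 2.48% of all genes). The other was lower in M2 (2.56%, against 1.93% and 1.76%). The larger pseudocount gave 4. The smaller and larger pseudocounts gave 10 and 3 calls for M1 minus M4, and 5 and 1 for M2 minus M3; the larger gave 6 for M3 minus M4. For M1 minus M2 it gave 0 calls by limma, with 19 genes at an unadjusted p under 0.05.

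Leaving out each array in turn gave 3 higher and 11 to 13 lower calls in the mean, 2 to 3 and 8 to 10 for M1, 4 and 9 to 11 for M2, 2 to 4 and 8 to 10 for M3, 3 and 18 to 21 for M4, and 15 to 18 genes that differed among the M lines. The pairs of M lines ranged over 3 to 5 calls (M1 and M2), 4 to 6 (M1 and M3), 5 to 8 (M1 and M4), 2 to 3 (M2 and M3), 5 to 10 (M2 and M4) and 12 to 14 (M3 and M4). A fit with the replicate number as a block gave 3 higher and 11 lower calls in the mean and changed none of these counts. Arrays with the same number did not deviate together (r between -0.07 and 0.06 over 10 pairs of lines). This cannot show an effect that differs between lines, and the labels do not say what the numbers stand for. Of 4275 values recomputed, 4102 kept their side of the threshold, 125 lost a call and 48 gained one, and none that was called under either setting had the opposite sign under the other. Values that were not called could change sign, as for Bst2 in the mean (-0.46 to 0.31). The cause of these moves was not tested. Signals near background, as for Mx1, Oas2, Stat2 and Dhx58, limit the fold that can be measured.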

Other observations

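Among the further interferon-induced genes, a few with uneven signals over the M lines were picked after their values were seen. Oas1a, an oligoadenylate synthetase gene, had 721.7 and 657 on the E arrays, 19.2 and 15.1 in M1, 246.0 and 202.3 in M2, 408.6 and 404.5 in M3, and 169.9 and 142.5 in M4. Its change in the mean was -2.01 ± 0.13 (SE; limma, adjusted p = 1.65e-18), with M1 lowest, as for Usp18, Irf8 and Irf9.

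Nlrc5, the transactivator of MHC class I genes, had 18.6 and 17.6 in E, 30.7 and 35.9 in M1, 153.9 and 116.6 in M2, 219.5 and 219.1 in M3, and 20.3 and 28.8 in M4. Cxcl11, a chemokine gene, had 7.3 and 27.3 in E, 29 and 20.2 in M1, 135.2 and 132.7 in M2, 219.7 and 192.9 in M3, and 10.8 and 23.1 in M4. Gbp6, a GTPase gene, had 47.4 and 13.9 in E, 32 and 22.6 in M1, 201.3 and 109.2 in M2, 216.2 and 254.3 in M3, and 71.4 and 79.5 in M4. Cd274, which encodes the ligand PD-L1, had 93.4 and 101.1 in M3 and between 2.8 and 31 on the other arrays. The first 3 of these genes were high in M2 and M3, and all 4 differed among the M lines in the moderated F test (limma).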
